A study of Mus musculus with 10 samples.

Results

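The replication-dependent core histone genes are the clustered gene copies that encode the H2A, H2B, H3 and H4 proteins of newly made nucleosomes. They were taken here as every gene of the deposited expression table with a current mouse symbol of the H2ac, H2bc, H3c or H4c series followed by a number. This gave 51 of 55401 listed genes, made up of 15 H2A, 14 H2B, 12 H3 and 10 H4 genes. The 10 libraries held poly(A) RNA of E14, an embryonic stem cell line of the mouse. Unedited wild-type cells gave 4 libraries in 2 numbered sets, and ANKRD11 Y347A cells, made by CRISPR/Cas9 editing, gave 6 libraries in 3 numbered sets, with 2 libraries in each set. ANKRD11 is a nuclear protein of transcriptional regulation, and the study asks about its binding to cohesin and about neural and craniofacial development. The labels give no added agent, time point or allele state. Nor do they tell if the sets are separate clones or cultures. The p-values of the genotype comparison thus set the difference between genotypes against the spread of these sets, which may be technical. The spread used for each gene was drawn in part from all tested genes.

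Core histone proteins wrap DNA into nucleosomes, and their replication-dependent genes are transcribed mainly in S phase, when the DNA is copied. Most animal mRNAs end in a poly(A) tail, whereas the mRNAs of these genes normally end just after a short stem-loop that is bound by the stem-loop binding protein SLBP and cut with the help of the U7 small nuclear RNA. Replacement variants such as H3.3 and H2A.Z are made outside S phase as well, from mRNAs with a poly(A) tail. Embryonic stem cells divide fast and spend much of their cycle in S phase, so that they need a steady supply of new histones. The libraries were made from RNA captured by its poly(A) tail, so the values below are levels of histone RNA that passed that capture. A lower level of a histone mRNA and a smaller captured part of it cannot be told apart here, nor can fewer cells in S phase and less histone RNA per cell.

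Levels are TPM, transcript abundance per length scaled to 1 fixed total per library, so sequencing depth is unknown. Means are given with the SD over set means (n = 2 wild-type and n = 3 mutant sets). Log2 fold changes with their SE compare mutant with wild type and come from limma on set means of log2(TPM + 1), which understates changes of low genes, and a gene was called at a Benjamini-Hochberg adjusted p under 0.05 over all 12797 genes whose mean reached 1 TPM. In each library between 12473 and 12812 genes reached 1 TPM. All 8 pluripotency markers examined were expressed in both genotypes, with Pou5f1 at 1224 ± 25.8 and 1123 ± 76.8 TPM and Sox2 at 292 ± 26.6 and 285 ± 11.3 TPM in wild-type and mutant sets. By limma Nanog (-0.68) and Zfp42 (-0.50) fell, Esrrb (0.28) and Tdgf1 (0.30) rose, and the other 4 were not called. Markers of fibroblast feeder cells summed to between 2.07 and 4.57 TPM in wild-type and between 1.27 and 2.17 TPM in mutant libraries, with Postn and Dcn at 0 throughout.

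The stem-loop letters were looked for in the longest annotated transcript of each gene, as the 16-base histone stem-loop on the transcript strand only, with 10 letters fixed and any base at the other 6 positions; every form found is spelled out next. They were present in 34 of the 51 genes, against 209 of 58797 protein-coding transcripts in the GENCODE M21 annotation (0.355%). The form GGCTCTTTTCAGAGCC was carried by 18 genes of the H2A, H2B and H3 types, and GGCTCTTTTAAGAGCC by 5 H2B and H3 genes. The H4 genes with the letters had other stems, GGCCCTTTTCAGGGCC in 4 genes, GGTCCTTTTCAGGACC in H4c2 and H4c11, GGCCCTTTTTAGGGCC in H4c9 and H4c14 and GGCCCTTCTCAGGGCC in H4c1. H3c8 had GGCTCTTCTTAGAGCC and H2ac20 had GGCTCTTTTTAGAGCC. The following stem-loops, with 5 bases on either side and the stem-loop in capitals, belong to genes whose levels are described below, and are shown to set the forms of the 4 histone types side by side (GENCODE M21, GRCm38, 5′ to 3′ on the transcript strand).
H2ac11, chr13:22042478-22042503, minus strand: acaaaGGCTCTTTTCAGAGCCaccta
H2bc11, chr13:22043633-22043658, plus strand: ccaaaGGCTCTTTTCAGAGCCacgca
H2bc12, chr13:22036295-22036320, plus strand: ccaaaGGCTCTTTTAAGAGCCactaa
H3c3, chr13:23745042-23745067, minus strand: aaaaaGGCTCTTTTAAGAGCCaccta
H3c8, chr13:23535884-23535909, plus strand: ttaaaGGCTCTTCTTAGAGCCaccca
H4c2, chr13:23757361-23757386, plus strand: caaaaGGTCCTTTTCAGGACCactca
H4c9, chr13:22040961-22040986, minus strand: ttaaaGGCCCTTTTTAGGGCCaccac
Among these, the H2A, H2B and H3 genes share the outer letters of the stem, and the pair of H4 genes differ from them and from each other within it. The annotation ended the transcript at most 200 bases after the stem-loop for 21 genes (11 to 155 bases), and ran 330 to 2010 bases past it for 13 genes. In the other 17 genes the letters were not in the annotated transcript, which for 13 of them stopped within 20 bases of the coding part, so that most of these models hold no room for the stem-loop.

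Summed over all 51 genes, core histone RNA was lower in the mutant, at 131 ± 23.8 TPM in wild-type and 57.7 ± 5.09 TPM in mutant sets, a 2.27-fold difference. The sum was 117 and 111 TPM in the libraries of wild-type set 1 and 153 and 143 TPM in those of set 2. In the mutant libraries it lay between 48.7 and 71.4 TPM, with a median of 54.2 TPM, so that every mutant library was below every wild-type library. Wild-type set 2 was above set 1, and the gap between these sets was smaller than the gap from either to any mutant set. These are sums of members chosen with results known, so they are given without a test.

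The sums of the H2A, H2B and H3 genes separated the genotypes in every library, and the H4 sum did so only by set. H2A genes summed to 40.9, 32.9, 59.3 and 38.8 TPM in the 4 wild-type libraries and to between 14.7 and 24.4 TPM (median 17.7 TPM) in the mutant libraries, 43.0 ± 8.60 against 19.1 ± 1.24 TPM by set. H2B genes summed to 28.9, 35.3, 34.6 and 29.0 TPM in wild-type and to between 10.5 and 19.5 TPM (median 14.7 TPM) in mutant libraries, 31.9 ± 0.209 against 14.8 ± 1.72 TPM. The H2A sum was thus 2.25-fold and the H2B sum 2.16-fold lower, and neither overlapped between genotypes. H3 genes summed to 32.7, 32.02, 41.1 and 49.1 TPM in wild-type and to between 8.29 and 17.9 TPM (median 16.6 TPM) in mutant libraries, 38.7 ± 9.01 against 14.8 ± 2.27 TPM, 2.62-fold lower. H4 genes summed to 14.8, 11.1, 17.7 and 26.3 TPM in wild-type and to between 4.43 and 11.2 TPM (median 9.65 TPM) in mutant libraries, 17.5 ± 6.41 against 8.995 ± 1.76 TPM. The H4 sum was 1.94-fold lower by set, but its highest mutant library lay just above its lowest wild-type library. With the H4 genes under older symbols added, described further on, the H4 sum was 28.3 ± 8.38 against 12.95 ± 1.76 TPM and its libraries did not overlap. Within each type a few genes held most of the sum, with the top 3 genes holding 57.3% of H2A, 80.3% of H2B, 69.9% of H3 and 64.3% of H4.

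**Figure D1:**
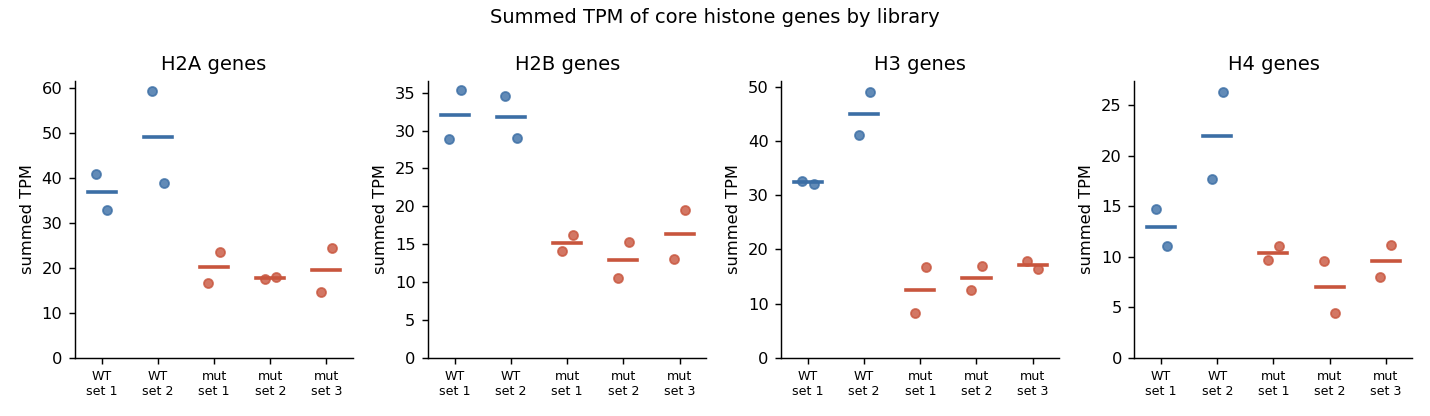
Summed TPM of the H2A, H2B, H3 and H4 genes in each library (points) and the mean of each set (lines), by wild-type (WT, blue) and mutant (mut, red) set; each panel has its own axis from 0. H2A, H2B and H3 sums of all 6 mutant libraries lie below those of all 4 wild-type libraries, while the H4 sums of the genotypes touch at about 11.1 TPM.

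Gene by gene, the mean was lower in the mutant for 37 of the 51 members, higher for 11, and 0 in every library for H2ac1, H2bc1 and H2bc15. Only 21 members reached the mean of 1 TPM needed for the test, and the other 30 did not. Of those 21, 12 fell and 1 rose in the mutant, against 10.5% of all tested genes called lower and 6.97% called higher. The median log2 fold change of the 21 was -0.97, beside -0.04 over all tested genes. All mutant libraries lay below all wild-type libraries in 8 of the 21 and above them in 1, where 19.4% of all tested genes lay wholly below and 12.4% wholly above. A member that reached the filter mainly through its wild-type level had to differ, so these counts describe the tested members and do not stand for all 51. The calls rest on few sets, and leaving out either wild-type set also cut the calls over all tested genes. Without wild-type set 1, 0 members were called by limma (14 lower and 1 higher at an unadjusted p under 0.05), and without wild-type set 2, 0 were called (12 lower and 2 higher at that level). Single libraries also ended calls. H2ac7 lost its call without the first library of mutant set 1 or 3 (limma adjusted p = 0.0707 and 0.158), H2bc12 without the first library of wild-type set 2 or of mutant set 3 (0.0719 and 0.0530), and H3c11 without the second library of any mutant set (0.0980 to 0.111). H3c10 lost it without any of 6 libraries, the first of every wild-type and mutant set and the second of mutant set 1 (0.0582 to 0.136), and H2bc3 is described below.

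Members were listed at 0 more often in the mutant libraries. Between 5 and 9 of the 51 genes were listed at 0 in a wild-type library and between 12 and 18 in a mutant library. A level of 1 TPM was reached by 23 to 30 members in wild-type and by 15 to 19 in mutant libraries. The ranges of both counts did not overlap between the genotypes. Over all genes, 12473 to 12812 reached 1 TPM in a library, a range not split by genotype here. Zeros over all listed genes were not counted, so these counts do not show if mutant libraries list more zeros in general.

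**Figure D2:**
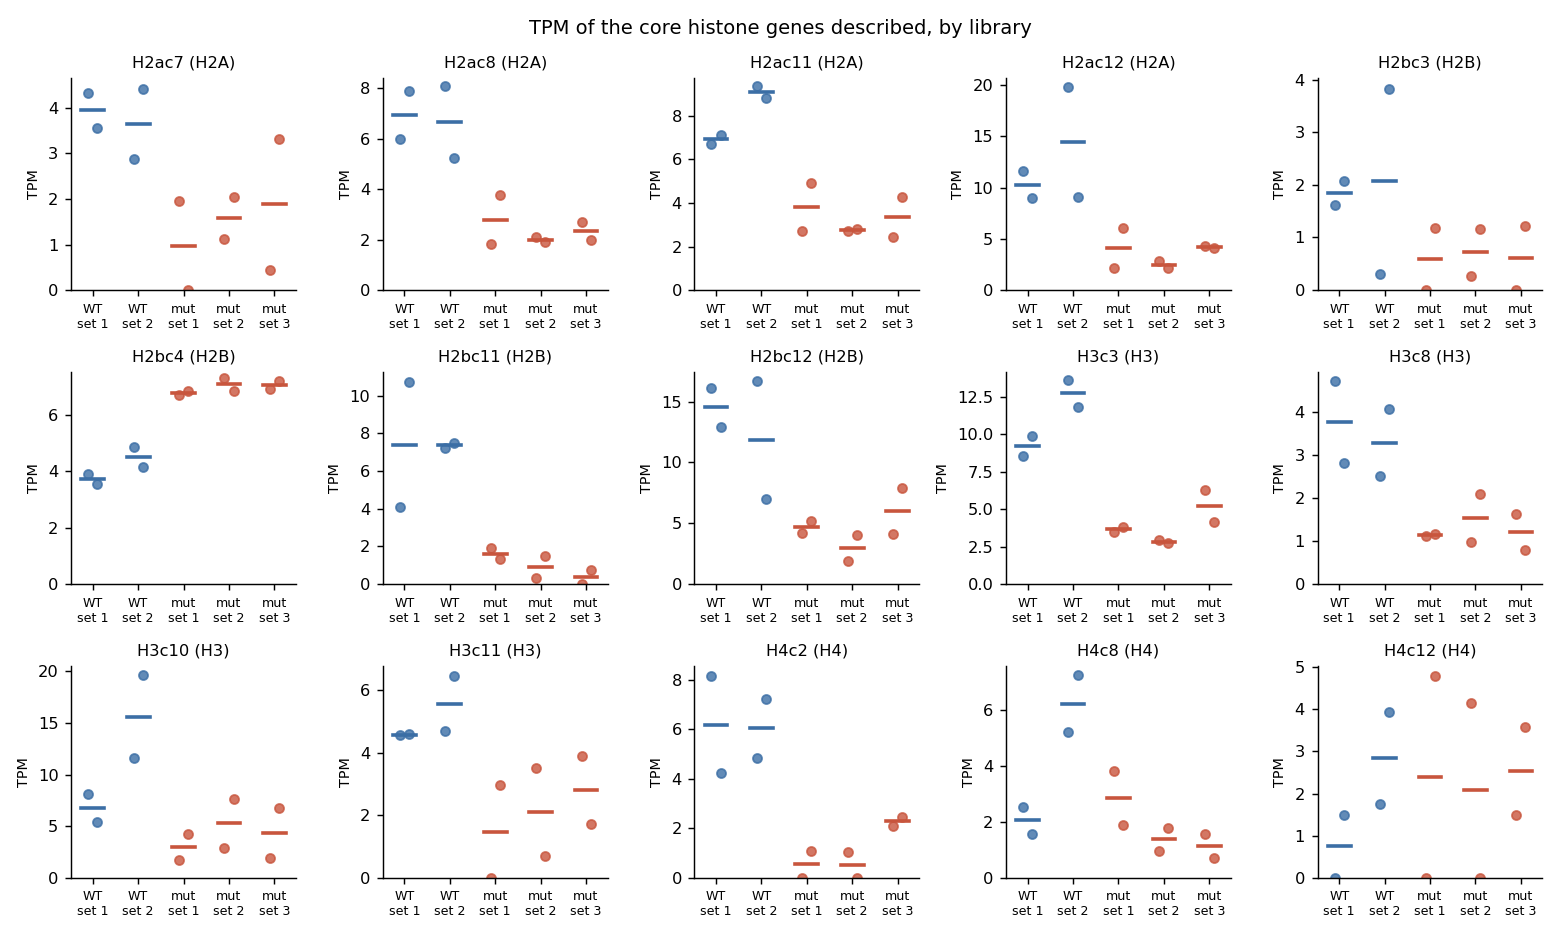
TPM of the described core histone genes in each library (points) and the mean of each set (lines), for wild-type (blue) and mutant (red) sets, with 1 panel and axis per gene; H2ac1 and H2bc1, at 0 throughout, are not drawn. H2bc4 is the member whose 6 mutant libraries (6.72 to 7.33 TPM) all lie above its wild-type libraries (3.54 to 4.88 TPM), whereas H2bc11 lies between 4.10 and 10.7 TPM in wild-type and at most 1.89 TPM in mutant libraries.

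Among the H2A genes, 7 were tested and 4 of them, H2ac7, H2ac8, H2ac11 and H2ac12, fell. H2ac12, the most abundant H2A gene (ENSMUSG00000069302.5, chromosome 13, 22035164 to 22035568, minus strand, a single exon), was at 11.6, 8.98, 19.8 and 9.08 TPM in the wild-type libraries and between 2.15 and 6.03 TPM (median 3.47 TPM) in the mutant libraries. All mutant libraries lay below all wild-type libraries, with a log2 fold change of -1.54 ± 0.20 (limma adjusted p = 0.0080). H2ac11 (ENSMUSG00000069301.5, 22042460 to 22042944, minus strand) was at 6.72, 7.14, 9.37 and 8.83 TPM in wild-type and between 2.43 and 4.90 TPM (median 2.76 TPM) in mutant libraries, without overlap (-1.09 ± 0.16, limma adjusted p = 0.0105). H2ac8 (ENSMUSG00000069272.6, 23570517 to 23571220, minus strand) was at 5.99, 7.91, 8.08 and 5.23 TPM in wild-type and between 1.82 and 3.77 TPM (median 2.05 TPM) in mutant libraries, and had the smallest limma adjusted p of the members at 0.0062 (-1.21 ± 0.14). These 3 genes make canonical H2A, the protein that pairs with H2B in the nucleosome. H2ac7 was at 4.32, 3.56, 2.87 and 4.42 TPM in wild-type libraries and between 0 and 3.32 TPM (median 1.54 TPM) in mutant libraries, where the highest mutant library lay within the wild-type range (-1.10 ± 0.21, limma adjusted p = 0.0193). H2ac10, H2ac15 and H2ac18 did not pass, with overlapping libraries and log2 fold changes of -0.04, -0.54 and 0.15. H2ac10 was at 3.92 ± 1.70 TPM in wild-type and 3.40 ± 1.22 TPM in mutant sets. H2ac1, the testis H2A that serves as a check on germline genes, was listed at 0 in all libraries, and H2ac14, the annotated pseudogene, was listed at 0 in the wild-type libraries and reached 3.74 TPM in 1 mutant library.

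Among the H2B genes, 4 were tested, H2bc3, H2bc11 and H2bc12 fell, and H2bc4 rose. H2bc11 (ENSMUSG00000069300.3, chromosome 13, 22043214 to 22043676, plus strand), whose stem-loop is printed above, was at 4.10, 10.7, 7.24 and 7.48 TPM in the wild-type libraries and between 0 and 1.89 TPM (median 1.05 TPM) in the mutant libraries. The groups did not overlap, and at 7.38 ± 0.0318 against 0.970 ± 0.619 TPM its mean was 7.61-fold lower (-2.12 ± 0.27, limma adjusted p = 0.0074), the largest log2 change among the 21 tested members. Its mutant mean was under 1 TPM, so H2bc11 passed the filter only through its wild-type level, and its call and rank carry that choice. H2bc12 (ENSMUSG00000062727.4, 22035870 to 22036345, plus strand), the most abundant member of all, was at 16.1, 12.96, 16.7 and 7.02 TPM in wild-type and between 1.86 and 7.91 TPM (median 4.15 TPM) in mutant libraries. Its highest mutant library exceeded its lowest wild-type library, and the log2 fold change was -1.37 ± 0.25 (limma adjusted p = 0.0174). H2bc3 was at 1.61, 2.07, 0.31 and 3.83 TPM in wild-type and between 0 and 1.21 TPM (median 0.715 TPM) in mutant libraries, also with overlap (-0.80 ± 0.18, limma adjusted p = 0.0281). With a mutant mean of 0.637 TPM, H2bc3 also passed the filter only through its wild-type level. The call rested on single libraries. Without the second library of wild-type set 2 the log2 fold change was -0.32 (limma adjusted p = 0.519), and the call was also lost without the first library of mutant set 1, 2 or 3, and in 11 of 26 alternatives in all. H2bc13, too low to test, was at 1.12, 1.69, 1.44 and 2.29 TPM in wild-type libraries and listed at 0 in all 6 mutant libraries. H2bc1, which encodes the testis H2B, was listed at 0 throughout.

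H2bc4 went the other way from the other called members. This H2B gene (ENSMUSG00000018102.5, chromosome 13, 23684199 to 23692908, plus strand) was at 3.91, 3.54, 4.88 and 4.16 TPM in the wild-type libraries and between 6.72 and 7.33 TPM (median 6.89 TPM) in the mutant libraries. Every mutant library lay above every wild-type library, with means of 4.12 ± 0.562 and 6.98 ± 0.168 TPM, a 1.69-fold rise (0.65 ± 0.12, limma adjusted p = 0.0187). The call was lost with no filter on low values, with the set number as a replicate block, and without wild-type set 1 or 2 or mutant set 1 or 3. Its longest annotated transcript of 1156 bases has 2 exons and does not hold the stem-loop letters. With H2bc4 left out, the H2B sum was 27.8 ± 0.771 TPM in wild-type and 7.82 ± 1.77 TPM in mutant sets, 3.56-fold lower in place of 2.16-fold. Leaving out a gene that rose was bound to enlarge the fold. H2bc21 on chromosome 3 (ENSMUSG00000068854.7, 96221119 to 96223738, plus strand) resembled H2bc4 in its long transcript of 2620 bases without the letters and in its higher mutant mean, but it was too low to test. It was at 0.06, 0.26, 0.14 and 0.20 TPM in wild-type and between 0.18 and 0.65 TPM (median 0.470 TPM) in mutant libraries, which overlap.

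Among the H3 genes, 5 were tested and 4 of them, H3c3, H3c8, H3c10 and H3c11, fell. H3c10 and H3c11 encode H3.1 and H3c3 encodes H3.2, forms that are deposited behind the replication fork. H3c3 (ENSMUSG00000069310.4, chromosome 13, 23744973 to 23745602, minus strand) was at 8.56, 9.90, 13.6 and 11.9 TPM in wild-type and between 2.72 and 6.31 TPM (median 3.65 TPM) in mutant libraries, without overlap (-1.31 ± 0.22, limma adjusted p = 0.0146). H3c8 (ENSMUSG00000099517.2, 23535422 to 23535951, plus strand) was at 4.73, 2.81, 2.51 and 4.06 TPM in wild-type and between 0.80 and 2.09 TPM (median 1.15 TPM) in mutant libraries, again without overlap (-0.97 ± 0.16, limma adjusted p = 0.0127). H3c11 (ENSMUSG00000101972.1, 21782960 to 21783370, minus strand) was at 4.56, 4.59, 4.69 and 6.44 TPM in wild-type and between 0 and 3.90 TPM (median 2.34 TPM) in mutant libraries (-1.15 ± 0.26, limma adjusted p = 0.0283). Its mutant libraries were widely spread but stayed below the wild-type libraries. H3c10 (ENSMUSG00000101355.1, 21717659 to 21718069, plus strand) was at 8.09, 5.40, 11.6 and 19.6 TPM in wild-type and between 1.75 and 7.61 TPM (median 3.60 TPM) in mutant libraries. The libraries overlapped and the wild-type sets were far apart, with a log2 fold change of -1.23 ± 0.32 and a limma adjusted p of 0.0424, the least secure of the calls, being lost in 16 of 27 alternative settings. H3c1 did not pass (-0.59 ± 0.28, limma adjusted p = 0.187). H3c13, too low to test, was at 0.88, 2.81, 1.96 and 1.32 TPM in wild-type and between 0 and 0.53 TPM in mutant libraries, wholly below. H3c6, also untested, was between 0.79 and 2.12 TPM in wild-type and between 0.10 and 0.76 TPM in mutant libraries.

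The H4 genes were mixed, with 5 tested, 1 lower and 4 not called. H4c2 (ENSMUSG00000069266.5, chromosome 13, 23757013 to 23757409, plus strand) was at 8.14, 4.23, 4.84 and 7.21 TPM in wild-type and between 0 and 2.45 TPM (median 1.07 TPM) in mutant libraries. The groups did not overlap, and at 6.11 ± 0.113 against 1.11 ± 1.01 TPM the mean was 5.48-fold lower (-1.87 ± 0.36, limma adjusted p = 0.0195). H4c8 was at 2.53, 1.58, 5.22 and 7.25 TPM in wild-type and between 0.72 and 3.83 TPM (median 1.67 TPM) in mutant libraries, and did not pass (-0.82 ± 0.40, limma adjusted p = 0.191). H4c12 varied widely within the sets, at 0, 1.5, 1.75 and 3.93 TPM in wild-type and between 0 and 4.79 TPM (median 2.54 TPM) in mutant libraries (0.13 ± 0.37, limma adjusted p = 0.821). H4c9, with 1.65 ± 0.590 and 1.87 ± 0.438 TPM (0.12 ± 0.21), and H4c1, with 1.39 ± 0.824 and 0.795 ± 0.148 TPM (-0.37 ± 0.26), did not pass either. The H4 copies encode the same protein.

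**Figure D3:**
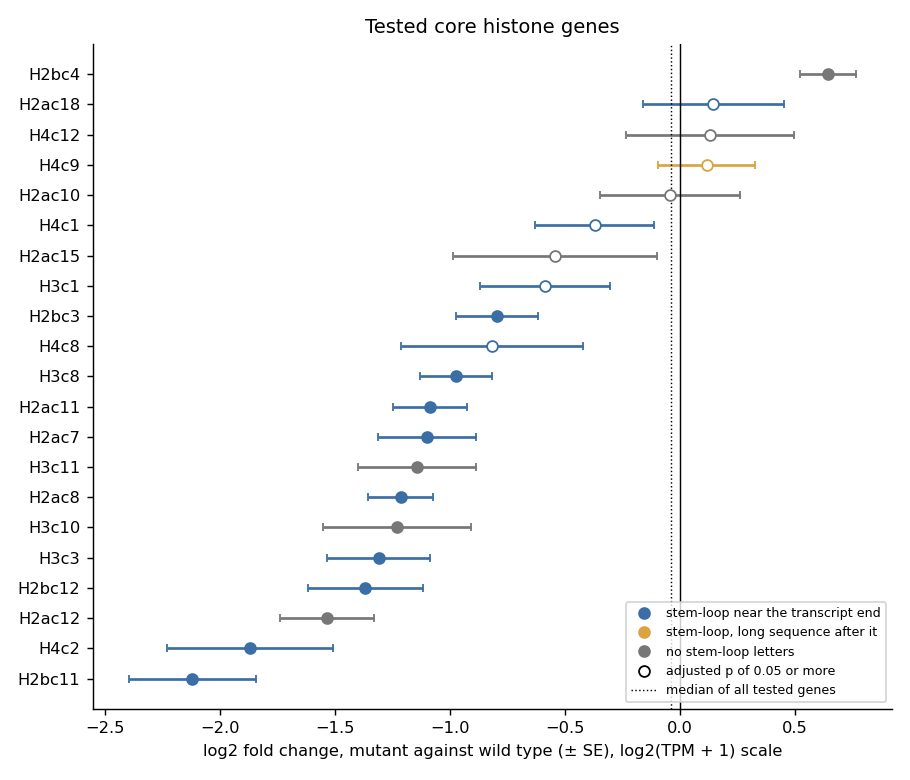
Log2 fold change (mutant minus wild type, on the log2(TPM + 1) scale) of the 21 tested core histone genes with bars for the SE; filled points were called at a limma adjusted p under 0.05, colours give the annotated transcript end, and the dotted line is the median of all tested genes. H2bc11 (-2.12) and H4c2 (-1.87) have the lowest values and H2bc4 (0.65) the highest.

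The members were next grouped by their annotated 3′ end. Of the 21 genes whose transcript ends near the stem-loop, 20 had a lower mean in the mutant and 1 a higher one. Of 13 of them that were tested, 9 fell by the limma test, 0 rose (0 higher at an unadjusted p under 0.05 too) and 4 were not called. Over all tested genes, 10.5% were called lower and 6.97% higher. Their sum was 76.1, 73.6, 85.2 and 79.6 TPM in wild-type and between 18.5 and 37.0 TPM (median 27.3 TPM) in mutant libraries, 2.82-fold lower by set and without overlap. Of the 13 genes whose annotated transcript runs on past the stem-loop, 8 had a lower and 5 a higher mean, and the 1 tested gene, H4c9, was not called. Their sum was 3.88, 5.80, 6.70 and 7.77 TPM in wild-type and between 2.99 and 5.64 TPM (median 3.80 TPM) in mutant libraries, which overlap (6.04 ± 1.69 and 4.05 ± 1.05 TPM by set). The difference between these classes was not tested, and the long-tailed genes were low in both genotypes. With 1 long-tailed gene tested, the calls give no comparison between the classes. Of the 17 genes without the letters, 7 were tested, 3 fell (H2ac12, H3c10 and H3c11) and 1 rose (H2bc4). The whole class summed to 46.4 ± 16.8 TPM in wild-type and 25.7 ± 1.49 TPM in mutant sets, 1.81-fold lower. Its lowest wild-type library, at 31.9 TPM, lay just above its highest mutant library, at 31.66 TPM. Leaving out H2bc4 and H2bc21, whose long transcripts lack the letters and whose mutant means were higher, it summed to 42.1 ± 16.2 TPM in wild-type sets. In mutant sets that reduced sum was 18.3 ± 1.40 TPM, 2.31-fold lower. Leaving out genes with a higher mutant mean was bound to enlarge the fold, so the larger fold is no result. H2ac14, H2ac21 and H4c12, which also lack the letters and had higher mutant means, stayed in.

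**Figure D4:**
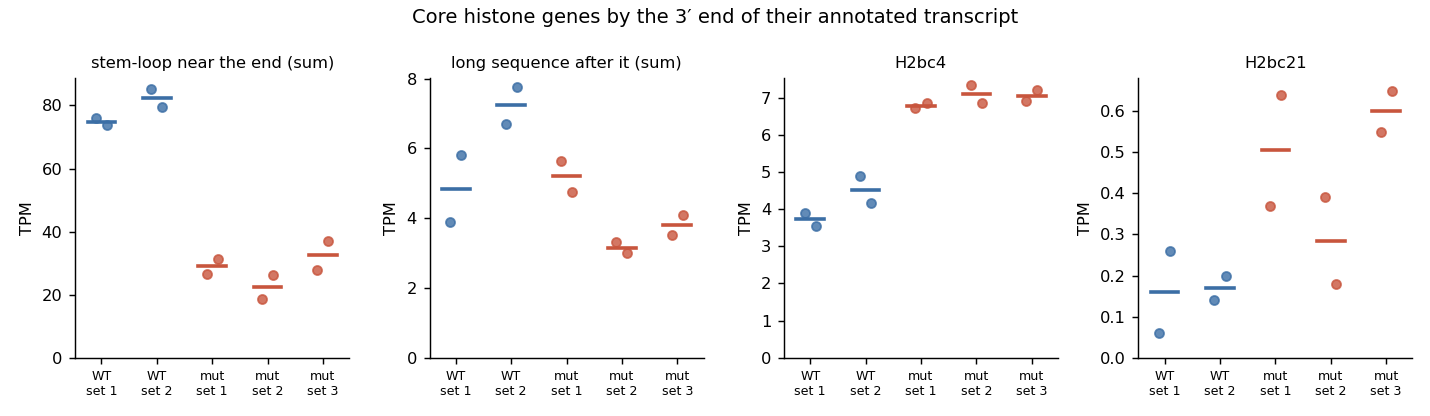
Summed TPM per library (points) of core histone genes whose annotated transcript ends near the stem-loop or far past it, and TPM of H2bc4 and H2bc21, which lack its letters, with lines for the mean of each wild-type (blue) and mutant (red) set. The class that ends near the stem-loop separates the genotypes (73.6 to 85.2 against 18.5 to 37.0 TPM), the class that runs past it does not (3.88 to 7.77 against 2.99 to 5.64 TPM), and H2bc4 is higher in the mutant.

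The members sit in clusters, 41 on chromosome 13 and 10 on chromosome 3 (GRCm38). The first group on chromosome 13 (21715763 to 22043676, 15 genes) summed to 66.5 ± 14.5 TPM in wild-type and 25.5 ± 0.841 TPM in mutant sets, 2.61-fold lower, with 9 members tested and 6 lower. The second (23531050 to 23934851, 26 genes) summed to 58.2 ± 8.21 and 28.6 ± 4.07 TPM, 2.03-fold lower, with 11 tested, 6 lower and H2bc4 higher. Over all tested genes, 10.5% were called lower and 6.97% higher. The summed libraries of both groups on chromosome 13 did not overlap between genotypes. The chromosome 3 group (96219865 to 96270132) was low, with 6.43 ± 1.13 and 3.60 ± 0.668 TPM, 1.79-fold lower by set but overlapping by library. Of its 10 members, 4 had a lower and 6 a higher mean, and the 1 tested, H2ac18, was not called.

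H2A and H2B genes often lie head to head and share a promoter region, and 10 such pairs had at most 500 bases between them. In 5 of these pairs both means were lower and in 0 both were higher. The H2ac12 and H2bc12 pair (301 bases apart) and the H2ac11 and H2bc11 pair (269 bases apart) had both genes tested, and all 4 genes fell. In the H2ac6 and H2bc4 pair (250 bases) the ratio of mutant to wild-type mean was 0.889 for H2ac6, which was near 0 in all libraries, and 1.69 for H2bc4. In the H2ac20 and H2bc21 pair (238 bases) the ratios were 0.344 and 2.81, from genes that were too low to test. The promoter stretch of the H2ac12 pair, in which both genes fell, and that of the H2ac6 pair, in which H2bc4 rose and which was read from the window of H2ac6, are shown to compare their letters (RefSeq, GRCm38.p6, plus strand). Capitals mark the CCAAT box, the TATAA box, the octamer ATTTGCAT and the E2F-type letters TTTCGCGC, on either strand, so that a motif on the minus strand is shown as its reverse complement.
H2ac12 and H2bc12, chr13:22035644-22035820: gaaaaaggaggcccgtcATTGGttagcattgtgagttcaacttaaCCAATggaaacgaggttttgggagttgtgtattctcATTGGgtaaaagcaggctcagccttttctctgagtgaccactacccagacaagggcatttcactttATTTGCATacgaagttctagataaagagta
H2ac6 and H2bc4, chr13:23683960-23684198: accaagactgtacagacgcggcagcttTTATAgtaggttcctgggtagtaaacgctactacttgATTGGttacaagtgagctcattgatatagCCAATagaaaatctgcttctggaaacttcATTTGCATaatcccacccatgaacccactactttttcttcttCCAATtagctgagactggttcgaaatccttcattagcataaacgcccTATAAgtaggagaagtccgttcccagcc
The first held 3 CCAAT and 1 octamer and no TATAA, and the second 3 CCAAT, 2 TATAA and 1 octamer. The stretch of the H2ac11 and H2bc11 pair, in which both genes also fell, held 5 CCAAT, 2 TATAA, 0 octamer and 1 E2F-type match. Promoter windows of 250 bases before the start were available for 45 of the 51 members; H2bc4, the only member that rose, had none and is not in the counts that follow. CCAAT was in 37 of them (82.2%), against 33.8% of all 32851 windows, and TATAA in 25 (55.6%), against 22.8%. The octamer was in 12 windows (26.7%), all of H2A or H2B genes, against 1.60% of all windows, and the E2F-type letters in 5 (11.1%), against 0.256%. Among the 12 called lower, CCAAT was in 11, TATAA in 8, the octamer in 4 and the E2F-type letters in 3. Among the 7 tested but not called with a window, they were in 4, 2, 0 and 1, and among the 26 not tested in 22, 15, 8 and 1. Histone type was not separated from the calls here. CCAAT was in 3 of 9 H4 windows, against all 14 H2A and all 12 H2B windows, and the octamer was in 0 of the 9 H4 windows. These are matches of letters and not binding sites.

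Sequence and annotation limit how far single copies can be told apart. A median of 57.0% of a member's 50-base words also occurred in a transcript of another annotated gene, on either strand, and more than 50% did in 28 members. Genes that overlap a member at its own place, as for H2ac18 and H3c13, count here too. Their part was not separated from that of other histone copies. H2bc4 shared 30.6%, H2bc21 none, H2bc11 59.4%, H2ac12 92.1%, H3c10 93.9%, H2ac10 94.0%, and H2ac18 and H3c13 all of theirs. Among other called members, H3c11 shared 87.6%, H2ac11 78.9%, H4c2 75.9%, H2bc12 74.2% and H2ac7 67.1%. The levels of members that share more than 50% are uncertain as single copies. A further 9 core histone genes carry older Hist1h symbols and lie outside the symbol rule. Adding them gave 170 ± 27.1 TPM in wild-type and 74.4 ± 10.3 TPM in mutant sets over all types, 2.29-fold lower. Of the 9, 5 were tested and 2 fell, Hist1h2ap from 16.6 to 6.09 TPM and Hist1h4n from 10.9 to 3.89 TPM. A gene on the opposite strand overlapped 18 members, 15 of them H2A genes, but 15 of these 19 genes were listed at 0 in all libraries and no other exceeded 0.74 TPM, and no source used here gives the strand setting of the counting.

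The sets of a genotype did not differ by the test for any member. Between the 3 mutant sets, 0 of 21 members passed the limma F test (2 at an unadjusted p under 0.05, the smallest adjusted p being 0.0528 for H3c3), where 19.6% of all tested genes passed. Between the 2 wild-type sets, 0 members passed limma (3 at an unadjusted p under 0.05, the smallest adjusted p being 0.0899 for H4c8), where 2.75% of all genes passed. A p that misses the threshold does not show that the sets were alike.

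Genes that make, process or degrade histone mRNA were called lower at about the share of all genes. Of 28 genes of histone mRNA transcription, processing and decay, 3 fell and 0 rose by limma (7 lower and 0 higher at an unadjusted p under 0.05), beside 10.5% of all tested genes called lower and 6.97% called higher, and their median log2 fold change was -0.14. Casp8ap2, which encodes FLASH, a factor of histone pre-mRNA processing, fell from 32.7 ± 6.05 to 17.7 ± 2.28 TPM (-0.85 ± 0.15, limma adjusted p = 0.0153). Slbp, the stem-loop binding protein, fell from 132 ± 1.01 to 102 ± 8.64 TPM (-0.38 ± 0.09, limma adjusted p = 0.0312). Snrpd3, a core protein shared by small nuclear ribonucleoproteins including that of U7, fell from 98.8 ± 4.26 to 76.2 ± 8.24 TPM (-0.38 ± 0.10, limma adjusted p = 0.0464). Histone chaperones carry histones to and from DNA. Of 24 tested, 6 fell and 1 rose, against the same 10.5% lower and 6.97% higher of all tested genes. Nasp, which binds H3 and H4, fell from 422 ± 33.2 to 260 ± 29.8 TPM (-0.70 ± 0.11), Nap1l1, which binds H2A and H2B, from 874 ± 3.02 to 610 ± 38.1 TPM (-0.52 ± 0.07), and Supt16, a subunit of the FACT complex, from 88.4 ± 9.25 to 63.0 ± 3.71 TPM (-0.48 ± 0.09). Ubn1, a subunit of the H3.3 chaperone HIRA, rose from 11.2 ± 3.37 to 17.9 ± 1.20 TPM (0.66 ± 0.17, limma adjusted p = 0.0408).

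Part of the S-phase genes other than histones fell. Of 29 tested, 17 were not called, 12 fell and 0 rose by limma, with a median of -0.32 (20 lower and 0 higher at an unadjusted p under 0.05), where 10.5% of all tested genes were called lower and 6.97% higher. Ccne1, the cyclin that starts DNA replication, fell from 82.3 ± 4.28 to 49.9 ± 7.31 TPM (-0.72 ± 0.12), Cdc25a, a phosphatase that activates cyclin-dependent kinases, from 57.4 ± 4.04 to 36.6 ± 3.13 TPM (-0.64 ± 0.10), Ccne2 from 13.5 ± 0.608 to 8.43 ± 1.34 TPM (-0.63 ± 0.14), and Gins1, part of the replicative helicase, from 74.2 ± 6.65 to 52.0 ± 3.63 TPM (-0.51 ± 0.09). Their part in the histone difference was not tested. Core histone genes made outside S phase were called at about the share of all tested genes, 10.5% lower and 6.97% higher. Their median log2 fold change was 0.05. Of 9 tested, H2az1, which encodes H2A.Z, fell from 1521 ± 36.9 to 1111 ± 138 TPM (-0.46 ± 0.10, limma adjusted p = 0.0274), H3f3b, which encodes H3.3, rose from 321 ± 14.4 to 433 ± 31.6 TPM (0.43 ± 0.08, limma adjusted p = 0.0173), and 7 did not pass. Of 7 linker histone genes, 4 were tested, 1 fell and 2 rose, against 10.5% of all tested genes called lower and 6.97% called higher. H1f1, a replication-dependent linker histone gene of the same chromosome 13 region, fell from 3.76 ± 0.488 to 0.965 ± 0.205 TPM (-1.29 ± 0.17). H1f0 and H1f10, which are made outside S phase, rose. H1f0 went from 25.8 ± 7.78 to 121 ± 15.1 TPM (2.20 ± 0.18), with wild-type sets at 31.3 and 20.3 TPM. H1f10 went from 10.2 ± 3.51 to 20.9 ± 4.82 TPM (0.99 ± 0.25). H1f2, also tested, was not called (0.48 ± 0.17, limma adjusted p = 0.0954). Its mean was higher in the mutant, at 1.545 ± 0.148 TPM in wild-type and 2.58 ± 0.504 TPM in mutant sets, with overlapping libraries.

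**Figure D5:**
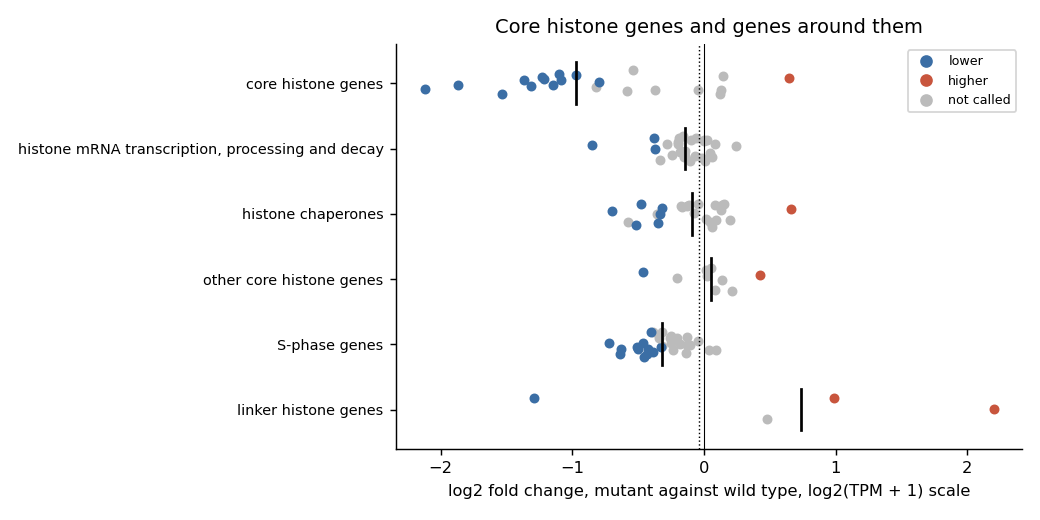
Log2 fold change of each tested gene (points) and the median (short bar) in the lists of core histone genes and of related gene groups, coloured by call; the dotted line is the median of all tested genes. The tested core histone genes have a median of -0.97, S-phase genes of -0.32 and genes of histone mRNA processing of -0.14, beside -0.04 over all tested genes.

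Levels of other RNAs that lack a poly(A) tail were also read. Of 28 such RNAs, among them small nuclear, small nucleolar and small Cajal body RNAs, 15 were listed at 0 in all libraries and 9 were tested. Their sum lay between 106 and 230 TPM in wild-type and between 86.9 and 260 TPM in mutant libraries, which overlap. That sum counts Rn7s1 and Rn7s2 separately, though their values are equal. Snora73b alone ran from 0 to 62.44 TPM in wild-type and from 0 to 80.55 TPM in mutant libraries. So uneven a sum cannot measure the part of poly(A) capture. Rn7sk rose (0.55 ± 0.10, limma adjusted p = 0.0187), as did Rn7s1 and Rn7s2, which are listed with equal values in every library, and Scarna10 fell (-1.16 ± 0.30, limma adjusted p = 0.0409), while the libraries of these 4 RNAs overlapped between genotypes. The part of poly(A) capture in the summed core histone level was not tested.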

How the data were processed

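The 10 libraries were made from poly(A) RNA of E14 cells. The deposited table holds TPM, and the authors used STAR, RSEM, Trim Galore and DESeq2 on build mm10, listed with no role or order per the submitters' processing notes. No source used here states versions, strand setting or annotation release. TPM keep no depth, so no counting interval can be given. Values were taken as log2(TPM + 1), and 12797 genes whose mean over all libraries reached 1 TPM were kept. The 2 libraries of a set were averaged and the 3 mutant sets set against the 2 wild-type sets with limma 3.58.1 in R 4.3.3 (two-sided, eBayes with trend; 3 residual and 4.01 prior degrees of freedom). P-values were Benjamini-Hochberg adjusted over all tested genes. Named members were those called, the most abundant 3 of each type, the germline genes H2ac1 and H2bc1 and the genes of the lists by size of change; H2bc13, H3c13, H3c6, H2bc21 and H2ac14 were named after their values were seen. The members and the gene lists were chosen with earlier results of these data known. Positions come from GENCODE M21 on GRCm38 (55141 of 55401 identifiers matched), promoter letters from RefSeq. Alternatives were another pseudocount, other filters, rescaling, a GC correction, other designs and variance settings, and leaving out each set or library. Adding the genes under older symbols was chosen after seeing the data. The drawings were made in matplotlib 3.10.9.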

Additional observations from a re-analysis of the deposited data

Results flagged for a closer look

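The H3c11 level of 6.44 TPM in the second library of wild-type set 2 stood apart from the other wild-type libraries, the nearest of which was at 4.69 TPM, a gap that took up 0.931 of the group's whole range. It was the 1 such value among 40 groups of libraries examined, and chance gives about 1 in 20 groups.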

How the results depend on the processing

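The lower count of 12 members became 6 with no filter on low values (48 members tested) and 5 at a mean of at least 5 TPM (6 tested). The 6 were not all among the 12. H2ac8, H2ac12, H2bc3 and H2bc11 kept their calls, and H2bc13 and H3c13, not tested in the main fit, were added. The single higher call, H2bc4, became 0 with no filter and 0 with the set number as a replicate block, which left 8 lower. Calls over all tested genes also moved, from 2242 of 12797 to 809 of 26268 with no filter and 1904 of 9423 at 5 TPM. They fell to 571 of 12797 with the set number as a replicate block and to 654 without mutant set 1. Calls over all genes also dropped without either wild-type set. Leaving out sets or libraries gave 0 to 12 lower and 0 to 1 higher, with 0 lower without either wild-type set, where 1 set assumed to vary like the mutant sets remains, and 6 without mutant set 1. H2ac8, H2ac12 and H2bc11 lost their calls only without a wild-type set. The log2 ratio of the H2A sum, -1.17, was -0.95 without wild-type set 2, and that of the H4 sum, -0.96, was -0.52. H4c12, not called, turned to -0.016 with a pseudocount of 0.1, to -0.046 with the set number as a replicate block, and ranged from -0.48 to 0.74 over left-out sets (-0.046 without mutant set 3) and from -0.29 to 0.55 over left-out mutant libraries. Same-numbered sets shared only a number, their deviations correlating at -0.16 and -0.09, and the replicate number as a block over all libraries gave 11 lower and 1 higher. Of the alternatives for single members, 309 kept direction and call, 78 lost the call and 9 turned direction. Depth is unknown, so it cannot be said which zeros are undetected low levels.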
